A study of Mus musculus with 8 samples.

Results

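The regions described here lie at 8 genes of the red cell lineage, Epor, Klf1, Hba-a1, Hbb-bt, Slc4a1, Ank1, Tfrc and Car2, and were measured by ATAC-seq, an assay that reads open chromatin through the cuts a transposase makes in it. A region was taken where its centre had a member gene as the nearest gene extent within 100 kb, which gave 43 of the 160978 regions in the authors' deposited table. Ank1 had 16 of them, Car2 had 9, Hbb-bt had 5, Slc4a1 had 4, Tfrc had 3, and Epor, Klf1 and Hba-a1 had 2 each. The farthest centre lay 14.8 kb from its gene, so the 100 kb limit left none out. At 4 Ank1 regions the centre lay equally near another gene, Gm51563 or Gm15816.

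The cells were cKit-positive mouse bone marrow cells sorted to leave out lymphoid and erythroid cells, after red cells had been lysed. The labels give 4 libraries with acute myeloid leukemia (AML), 2 of genotype URE-delta/+;Tet2+/- and 2 of genotype URE-delta/+;Tet2-/-, where the URE is a distal enhancer of Spi1, the gene of the transcription factor PU.1, and Tet2 encodes an enzyme that oxidises methylated cytosine. The 4 normal libraries are 1 each of URE+/+;Tet2+/+, URE-delta/+;Tet2+/+, URE+/+;Tet2+/- and URE+/+;Tet2-/-, so no normal library joins the URE deletion with a Tet2 mutation, and leukemia and that joint genotype cannot be told apart. By the lane numbers in the labels, the leukemic libraries and the normal ones with intact Tet2 ran on lanes 6 and 7, and the normal Tet2 mutants on lane 8. The table compares leukemic with non-leukemic cells under the label of low PU.1, and whether that label covers both sides is not stated. Only 1 normal library carries the URE deletion, so the non-leukemic side could be a single library. It gives each region 1 log2 fold change (the log2 fold, positive where leukemic cells were more accessible), 1 log2 average abundance and 1 adjusted p-value. The sources used here do not say which libraries stood on either side, how many mice a library pooled or how old the mice were. No value per library was used, so no spread between mice can be set beside any value, and fewer cells of a type cannot be told apart from less open chromatin per cell.

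Red cells form from a progenitor that becomes dependent on erythropoietin, the hormone read by the receptor that Epor encodes. The factors Gata1 and Klf1 then switch on the globins, the heme pathway, the transferrin receptor that brings in iron, and the proteins that tie the red cell membrane to its skeleton. PU.1 and Gata1 are known to oppose each other in blood progenitors, and the URE deletion lowers PU.1. Tfrc and Car2 are also used outside the red lineage, Tfrc by dividing cells in general.

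Promoter sequence was read from the RefSeq promoter table of GRCm38.p6, the build of the files, which held 5 of the 8 genes in 6 windows. The 250 bases before the annotated start are shown for the hormone receptor, the factor and both adult globins, since a tested region lay over each of them and their read levels and folds are compared in what follows. Klf1 is at chr8:84901732-84901981 on the plus strand, Epor at chr9:21963577-21963826 on the minus strand, Hba-a1 at chr11:32283422-32283671 on the plus strand and Hbb-bt at chr7:103813924-103814173 on the minus strand. Each is written 5′ to 3′. Capitals mark the letters searched for on both strands, AGATAA and TGATAA for GATA factors, CCACACCC and the shorter CACCC for the Klf family, CCGCCC for Sp factors, CAGCTG and CAGATG for E boxes, and CCAAT.
Klf1: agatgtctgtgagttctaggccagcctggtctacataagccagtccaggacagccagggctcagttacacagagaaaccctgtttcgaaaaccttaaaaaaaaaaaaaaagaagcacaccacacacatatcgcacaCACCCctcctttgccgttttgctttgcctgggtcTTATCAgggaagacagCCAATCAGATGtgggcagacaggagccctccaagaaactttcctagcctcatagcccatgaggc
Epor: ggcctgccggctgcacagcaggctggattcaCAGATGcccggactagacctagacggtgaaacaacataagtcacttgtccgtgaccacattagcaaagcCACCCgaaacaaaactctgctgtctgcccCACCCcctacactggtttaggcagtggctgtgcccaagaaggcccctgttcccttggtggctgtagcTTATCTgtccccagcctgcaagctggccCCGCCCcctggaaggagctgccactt
Hba-a1: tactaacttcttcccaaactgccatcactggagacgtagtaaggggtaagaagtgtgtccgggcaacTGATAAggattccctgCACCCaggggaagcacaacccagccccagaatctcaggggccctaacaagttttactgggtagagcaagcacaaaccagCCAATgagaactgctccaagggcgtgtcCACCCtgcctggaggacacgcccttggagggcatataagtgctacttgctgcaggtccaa
Hbb-bt: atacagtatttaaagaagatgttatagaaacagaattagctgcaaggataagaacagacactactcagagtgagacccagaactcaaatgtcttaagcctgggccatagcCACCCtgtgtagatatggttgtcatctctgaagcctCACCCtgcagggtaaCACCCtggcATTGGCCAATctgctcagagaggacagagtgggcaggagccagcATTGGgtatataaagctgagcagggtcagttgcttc

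The Epor window held AGATAA, read as TTATCT, 54 to 49 bases before the start, letters found in 9.99% of 32851 promoter windows of this length. Klf1 held TGATAA, read as TTATCA, 80 to 75 bases before the start, and Hba-a1 held it 183 to 178 bases before, against 7.94% of all windows. The Hbb-bt window held neither GATA form. CACCC was present in all 6 member windows, 3 times in Hbb-bt, and in 52.0% of all windows, while the longer CCACACCC, of which CACCC is a part, was in 0 of the 6 and in 3.20% of all windows. The CCAAT letters were in 4 of the 6 and in 33.8% of all windows. The Sp letters were in 2 of the 6 and in 32.7% of all windows, the second E-box form in 2 and in 14.4%, and the first E-box form in 0 and in 13.0%. In Klf1 the capitals run together where the CCAAT and E-box letters abut, and in Hbb-bt where CCAAT abuts its reverse complement. The second GATA form, the shorter Klf form and the CCAAT letters were added after the sequences were seen. A tested region overlapped all 6 member windows and 50.6% of all windows. It covered the whole 250 bases in the windows of Klf1, Epor, Hba-a1 and Tfrc, and 178 of them in Hbb-bt.

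By the authors' csaw comparison, 0 of the 43 regions were called at their own threshold, an adjusted p under 0.001, which called 2.46% of all regions, 1.24% as higher in leukemic cells and 1.22% as lower. At an unadjusted p under 0.05, 4 of the 43 were higher and 12 lower, against 15.0% and 16.3% of all regions and 31.3% in either direction. At an adjusted p under 0.05, which called 17.2% of all regions, 9 of the 43 passed, or 20.9%. Of the 9, 6 were less accessible in leukemic cells, a direction called at 9.21% of all regions, and 3 were more accessible, called at 7.98%. The lower ones lay at Car2 (3), Ank1 (2) and Hbb-bt (1), and the higher ones at Epor, Slc4a1 and Ank1, 1 each. A p-value that misses the threshold does not show that a region was equal in both kinds of cell.

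As a whole the 43 regions were centred near no change, with a median log2 fold change of 0.02 and quartiles of -0.996 and 0.58, against 0.02, -0.71 and 0.60 over all regions of the authors' deposited table. Folds above 0 stood at 22 regions and folds below 0 at 21. This centre does not describe any single gene, since Car2 lay wholly below 0 and Klf1 and Hba-a1 wholly above it. Without the 9 Car2 regions the median was 0.27, and without the 16 Ank1 regions it was -0.31.

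**Figure D1:**
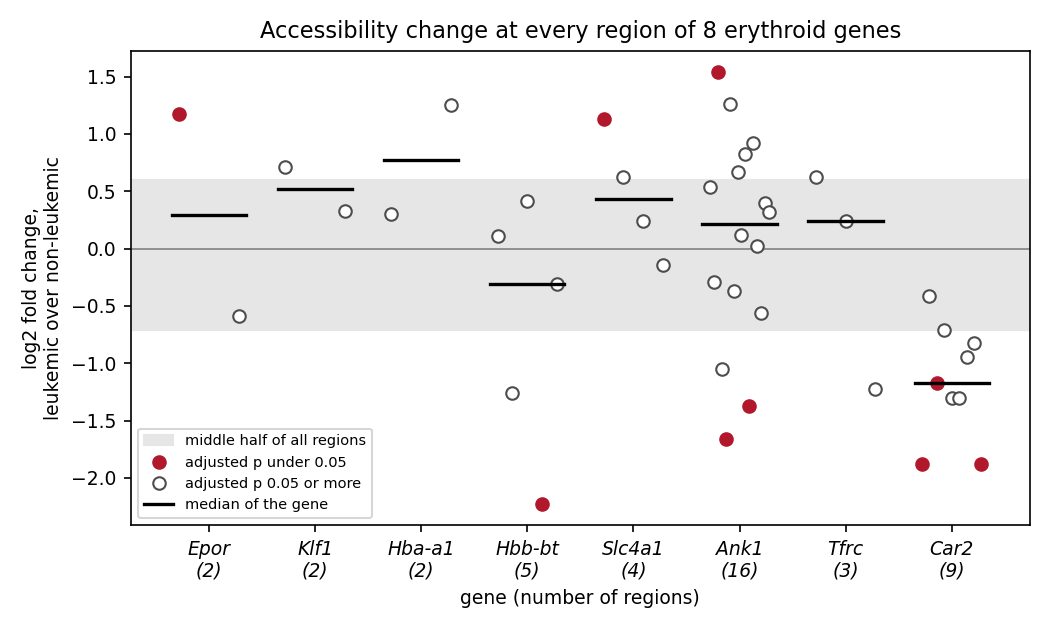
Log2 fold change of leukemic over non-leukemic cells (vertical axis) for each of the 43 regions, by gene, from the authors' deposited table. Points are regions in order along the chromosome, filled where the adjusted p is under 0.05, bars are gene medians, and the grey band is the interquartile range of all regions. All 9 Car2 points lie below 0, while the Ank1 points run from -1.66 to 1.54.

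Epor, the erythropoietin receptor gene on chromosome 9, had a small open site inside the gene and a broad region over its promoter. The interior site at 21961452 to 21961647, 2.03 kb into the gene from the annotated start, had a log2 fold of 1.17 in the authors' deposited table (adjusted p = 0.018). Its log2 abundance of 0.14 was higher than that of 75.9% of all regions and of 94.2% of regions of like width. The promoter region at 21962430 to 21963961 stood at -0.59 in the authors' deposited table (adjusted p = 0.709). So the gene carried a higher interior site at 0.05 and no call over the promoter sequence shown above.

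Klf1, the erythroid Krueppel-like factor that activates adult beta-globin and many membrane genes, lies on chromosome 8 and held the most open region of the 43. That region, at 84902911 to 84903625 inside the gene and 1.29 kb past the start, had a log2 abundance of 4.11 in the authors' deposited table, above 98.7% of all regions and 99.3% of those of like width. Its log2 fold was 0.32 in the authors' deposited table (adjusted p = 0.197). Among all regions cut into 10 equal classes of abundance, those of the top class called at 0.05 had a 5th percentile of size of 0.74. The fold at the Klf1 interior site was smaller than that. This class spans log2 abundances from 1.51 to 7.40, so 0.74 need not be the size that could be called at 4.11. The promoter region at 84901156 to 84902214 had a log2 fold of 0.71 and a log2 abundance of -0.36 in the authors' deposited table (adjusted p = 0.301).

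The globins were less open than the interior site of Klf1. Hba-a1, an adult alpha-globin gene on chromosome 11, had its promoter region at 32283149 to 32283763 with a log2 abundance of -0.82 and a log2 fold of 0.30 in the authors' deposited table (adjusted p = 0.636). The region beyond the other end of the gene, at 32284625 to 32285939, stood at 1.25 with an abundance of -1.39 in the authors' deposited table (adjusted p = 0.0856). Neither passed 0.05, and they stood above 36.5% and 9.55% of regions of like width.

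Hbb-bt, an adult beta-globin gene on chromosome 7, carried the lowest fold change of the 43 regions. A region of 2801 bp at 103811300 to 103814101, which spans the gene and most of the promoter sequence shown, had a log2 fold of -2.22 in the authors' deposited table (adjusted p = 0.0155). Its log2 abundance was -0.47, above 65.5% of all regions and 23.5% of those of like width. The other 4 Hbb-bt regions ran from -1.26 to 0.41 in the authors' deposited table, where adjusted p ran from 0.124 to 0.907. The region of 902 bp starting at 103808917 was the one at -1.26, and the rest lay between -0.31 and 0.41.

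Both globins have near-identical copies next to them, and the sources used here do not say how reads shared between copies were treated, so values of single copies are uncertain. Hbb-bs, the other adult beta-globin gene, had 1 region of 3805 bp at 103824328 to 103828133 with a log2 fold of 0.46 in the authors' deposited table (adjusted p = 1). Its log2 abundance of -2.17 was above 2.89% of regions of like width. The most abundant gene-end region of Hba-a2, the second adult alpha-globin gene, stood at 0.60 (adjusted p = 0.998) with an abundance of -1.31 in the authors' deposited table. The lower value at Hbb-bt was therefore not matched by a call at its neighbouring copy, and the difference between the copies was not tested. A call at Hbb-bs was unlikely at its read level, since 2.19% of all regions in its class of abundance passed 0.05.

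Slc4a1 encodes band 3, the anion exchanger of the red cell membrane, and was the least open member at its gene ends. Its end regions on chromosome 11, at 102348081 to 102349005 and 102365029 to 102365456, had log2 abundances of -2.27 and -1.98 in the authors' deposited table, above 16.2% and 25.8% of all regions. Their log2 folds were 0.63 and -0.14 in the authors' deposited table, where adjusted p was 0.747 and 0.887. The interior region starting at 102363648 stood at 0.24 in the authors' deposited table (adjusted p = 0.77). A site outside the gene, 10.1 kb away at 102338652 to 102338873, was higher at the 0.05 level, with a log2 fold of 1.13 in the authors' deposited table (adjusted p = 0.0269). Its log2 abundance of -0.09 was above 90.0% of regions of like width.

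Ank1 encodes ankyrin, which ties band 3 to the spectrin skeleton, and had regions that passed 0.05 in both directions inside the same gene. On chromosome 8, the interval from 23027890 to 23028873, 983 bp wide, had a log2 fold of -1.66 at a log2 abundance of 1.98 in the authors' deposited table (adjusted p = 0.006). It was the most abundant of the 16. The region at 23058206 to 23058448 stood at -1.38 in the authors' deposited table (adjusted p = 0.0371). The small region at 23016371 to 23016540 stood at 1.54, the highest of all 43, at a low abundance of -2.41 in the authors' deposited table (adjusted p = 0.0443). Both lower sites thus had more reads than the higher one.

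The ends of Ank1 were open and gave no call. The interval from 22975053 to 22975677 had a log2 fold of 0.54 at an abundance of 0.79, and that at 23149052 to 23150240 had 0.32 at 1.57, in the authors' deposited table (adjusted p = 0.293 and 0.541). Of all 16, 10 had folds above 0 and 6 below, and the gene's median of 0.22 was close to 0.23, the median of all chromosome 8 regions in the authors' deposited table. Relative to that chromosome the Ank1 median was -0.01.

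Tfrc, the transferrin receptor gene through which cells take up iron, had 3 regions on chromosome 16 and 0 that passed 0.05. The promoter region at 32608423 to 32610788 had a log2 fold of 0.62 and a log2 abundance of 0.13 in the authors' deposited table (adjusted p = 0.676). Inside the gene, the region at 32611684 to 32612351 stood at 0.24 (adjusted p = 1) and that at 32613548 to 32614340 at -1.22 in the authors' deposited table (adjusted p = 0.0993). With protein-coding genes alone as candidates, 8 regions fell to Tfrc and their median was -0.30, against 0.24 for the 3.

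Car2, which encodes a cytosolic carbonic anhydrase abundant in red cells, had folds below 0 at all 9 of its regions, of which 3 were lower at the 0.05 level. The 9 regions, on chromosome 3, had log2 folds from -1.88 to -0.41 with a median of -1.18 in the authors' deposited table. The broad region at 14886097 to 14888019, over the gene end with the lower coordinate, had a log2 fold of -1.18 and the lowest adjusted p of the 43, 0.00163, in the authors' deposited table. Its log2 abundance was 3.49, above 97.6% of all regions, so the lower value rests on one of the most open sites described here.

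Both flanks of Car2 held 1 region that was lower at the 0.05 level. A site 5.77 kb outside the gene at 14880353 to 14880636 stood at -1.88 in the authors' deposited table (adjusted p = 0.00337). On the other side, 14.8 kb beyond the gene, the region at 14915309 to 14915875 also stood at -1.88 in the authors' deposited table (adjusted p = 0.00676). The 4 regions inside the gene had -0.71, -1.31, -1.31 and -0.95 in the authors' deposited table, where adjusted p was 0.338, 0.0798, 0.0503 and 0.119. The remaining 2, starting at 14882760 and 14912035, had -0.41 and -0.82 in the authors' deposited table, where adjusted p was 0.568 and 0.242.

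Over the genome 5008 genes had at least 9 regions, and 129 of them, 2.58%, had every region below 0. Without chromosome 2 it was 49 of 4592 genes, 1.07%, and 1.61% of these had a lower median than Car2. Genes with more than 9 regions are included, and with more regions a single direction throughout is harder to reach. These shares may therefore be lower than among genes with 9 regions, as Car2 has. Regions of a gene are neighbours and do not vary independently, and Car2 was singled out after its values were seen. Car1, Car3 and Car13, carbonic anhydrase genes of the same cluster, had 5 regions each with medians of -0.01, 0.01 and -0.14 in the authors' deposited table and 0 regions past 0.05. With protein-coding genes alone as candidates, 20 regions fell to Car2 with a median of -0.61, and over all 30 regions within 100 kb it was -0.37.

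**Figure D2:**
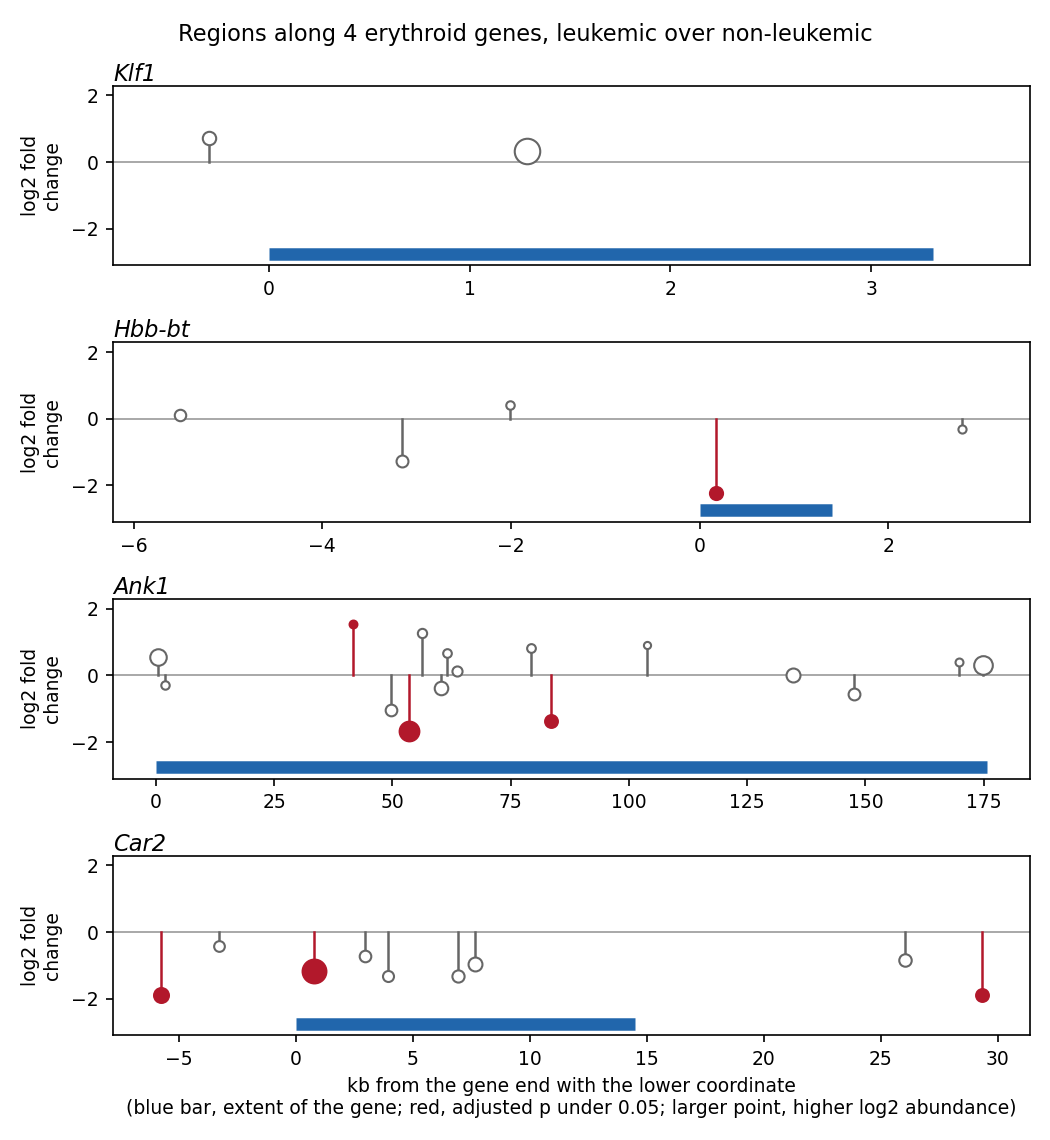
Log2 fold change (vertical axis) at each region of Klf1, Hbb-bt, Ank1 and Car2, placed by its distance in kb from the gene end with the lower coordinate, from the authors' deposited table. The blue bar is the gene, red points have an adjusted p under 0.05 and larger points a higher log2 abundance. Car2 folds lie below 0 from the outer flank at -5.77 kb to the far site at 29.3 kb, Ank1 has both directions, and the large Klf1 point lies near 0.

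How much a missed call says depends on the read level. Across all regions, an adjusted p under 0.05 was reached by 1.29% of the lowest of the 10 classes of abundance and by 39.8% of the ninth. In the lowest class, called regions had a 5th percentile of size of 1.51, against 1.03 in the ninth. These classes take no account of width, which ran from 149 to 7216 bp over all regions, and its part in the calls was not tested. Of the 43 regions 35 had a log2 abundance below 0, with a median of -0.91 against -1.17 over all regions. At the Slc4a1 end regions, the Hbb-bt and Ank1 sites with few reads and the Tfrc region starting at 32611684, a smaller difference was therefore hardly detectable at this read level. Of the 8 regions with an abundance of at least 0, 4 passed 0.05, at Epor, at Ank1 and at Car2 (2). In the 3 highest of the 10 classes of abundance, 36.1%, 39.8% and 28.7% of all regions passed.

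**Figure D3:**
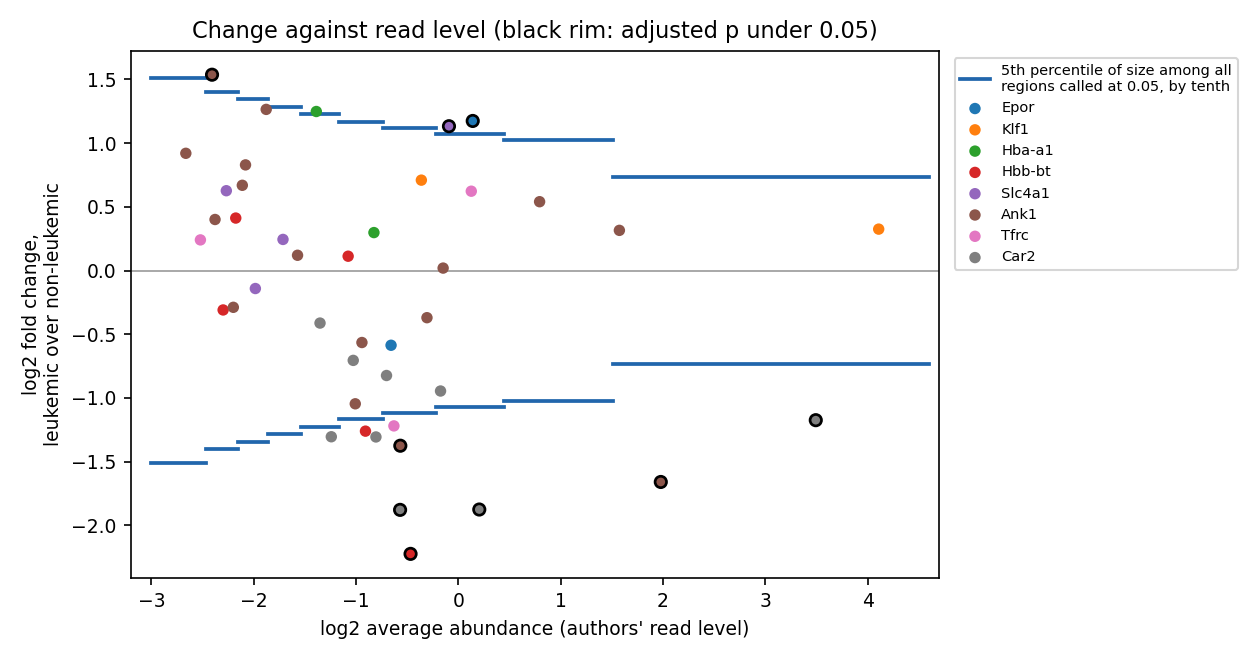
Log2 fold change (vertical axis) against log2 average abundance (horizontal axis) for the 43 regions, coloured by gene, from the authors' deposited table. Blue steps give, for each of 10 classes of abundance, the 5th percentile of size among all regions called at 0.05, from 1.51 in the lowest class to 0.74 in the highest. Points between the steps, such as Klf1 at 4.11, were not called.

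The label was checked on the levels at gene ends. For each gene the most abundant region within 1 kb of either end was ranked among all regions. The 8 members had a median percentile of 66.5, from 25.8 at Slc4a1 to 97.6 at Car2, against 97.0 for 13 housekeeping genes with such a region. Among regions of like width the member median was at 35.8, against 88.7 for the housekeeping genes. B-cell markers, such as Pax5, had a median of 56.9 and T-cell markers, such as Cd3e and Cd8a, had 65.1, both lineages that the sort should remove. Among regions of like width these markers stood at 43.8 and 58.8, above the members' 35.8. Granulocyte markers such as Mpo and Elane stood at 94.5, megakaryocyte markers such as Itga2b and Pf4 at 86.5, and the progenitor genes Kit and Cd34 at 94.0. Within like width these lists stood at 95.5, 77.8 and 84.7.

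The members therefore were not alike. Car2 and the more open Ank1 end stood at the 97.6th and 90.4th percentiles, within the 86.7 to 98.7 spanned by granulocyte genes. The other Ank1 end stood at 84.0. Among regions of like width, Car2 and the more open Ank1 end stood at 84.7 and 76.2, against a granulocyte median of 95.5. The gene ends of Tfrc, Klf1, Hbb-bt, Epor and Hba-a1 followed at 75.7, 67.5, 65.5, 61.7 and 58.0. Slc4a1 was the lowest at 25.8. The Klf1 value leaves out its interior region, at 98.7, which lay 1.29 kb past the start and so beyond the 1 kb limit. Among regions of like width the order changed. Klf1 at 38.8 and Hba-a1 at 36.5 came ahead of Tfrc, with Hbb-bt at 23.5, Epor at 20.1 and Slc4a1 at 11.4 below it. No spread between libraries was available, so whether neighbours in either order differ cannot be said.

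**Figure D4:**
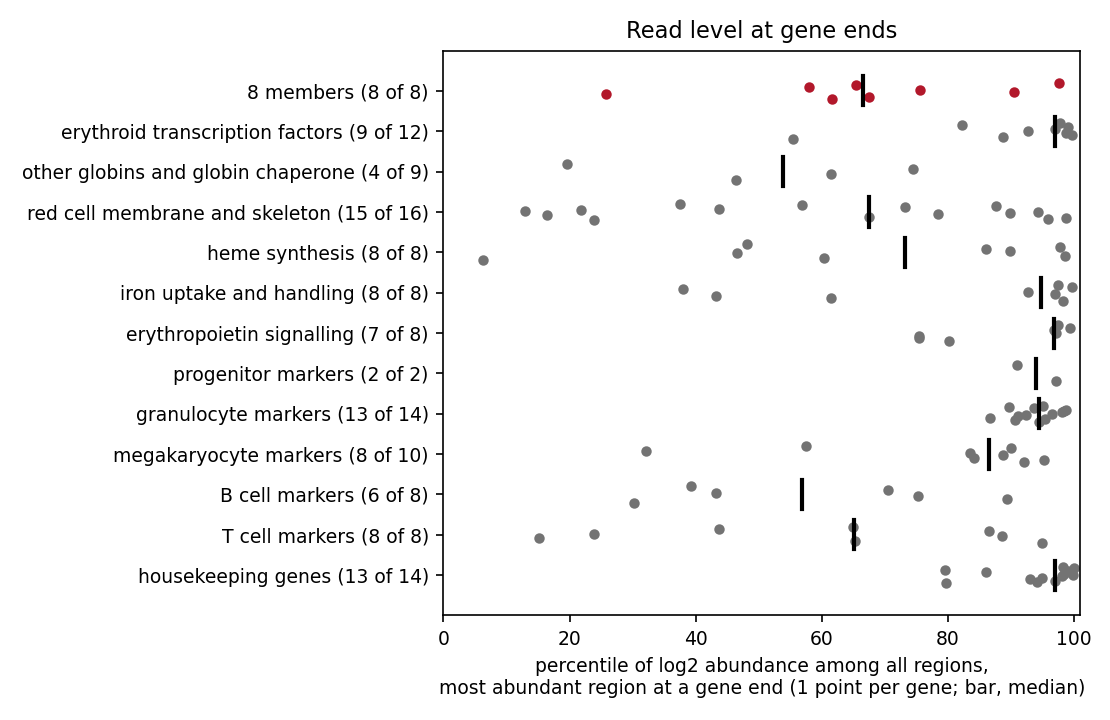
Percentile of log2 abundance among all regions (horizontal axis) of the most abundant region at each gene's ends, by gene list, from the authors' deposited table. Points are genes, bars are medians and the counts give genes with such a region of those listed. The members spread from 25.8 to 97.6, while granulocyte markers lie between 86.7 and 98.7.

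Among genes that act with the members, the median gene end stood at the 67.5th percentile for membrane genes, 73.2nd for heme genes, 94.8th for iron genes and 96.8th for erythropoietin signalling. Within like width these lists stood at 38.8, 35.5, 83.1 and 84.2. Of 12 erythroid transcription factor genes, 9 had a gene-end region, with a median percentile of 97.0, or 91.0 within like width. The list had 168 regions, of which 1 rose and 2 fell at 0.001, a threshold at which 1.24% of all regions rose and 1.22% fell. Tal1, a factor of blood stem cells and red cells, fell over a region of 3860 bp with a log2 fold of -1.67 in the authors' deposited table (adjusted p = 1.67e-04). Lmo2, a bridging protein of the Gata1 and Tal1 complex, fell by 3.20 on the log2 scale near the gene in the authors' deposited table (adjusted p = 3.11e-04), and lies on chromosome 2. Zbtb7a, a repressor of fetal globin in human cells, rose by 2.25 in the authors' deposited table (adjusted p = 5.68e-05).

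At 0.05, 8 factor regions were higher and 19 lower, or 8 and 14 of 148 without chromosome 2. The 8 and 19 were 4.76% and 11.3% of the list's regions, against 7.98% and 9.21% of all regions. Gata1, the master factor of the red lineage, had 4 regions with a median of -1.12 in the authors' deposited table, 1 of them lower at 0.05.

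Other globin genes had 5 of the 8 that the annotation matched with a region, 9 regions in all and 0 called at 0.001. The globin chaperone gene Ahsp had no match by that symbol and was not analysed here. The only region past 0.05 lay near Hbb-y, an embryonic globin, at 1.51 in the authors' deposited table (adjusted p = 0.0461). The neighbours of the alpha-globin genes, Nprl3, Mpg, Rhbdf1 and Snrnp25, had 5 of 17 regions higher at 0.05, or 29.4% against 7.98% of all regions and 10.1% of those on chromosome 11, and 0 lower, with a median of 0.67 against 0.17 for all of chromosome 11 in the authors' deposited table. Of the 5, Mpg and Rhbdf1 had 2 each and Nprl3 had 1. The list's median log2 abundance was -0.11, and 36.1% of all regions in that class of abundance passed 0.05 in either direction. The part of read level in this share was not tested. Introns of Nprl3 are known to hold enhancers of the alpha-globin genes. A small region inside Nprl3 at 32237121 to 32237305 stood at 1.65 in the authors' deposited table (adjusted p = 0.00366), and 0 of the 17 passed 0.001. Among the 10 Nprl3 regions no other passed 0.05, and whether this site is such an enhancer was not tested.

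Membrane and skeleton genes had 138 regions at 15 of 16 genes, 1 called at 0.001, a gain of 1.44 at Gypc, the glycophorin C gene in the authors' deposited table (adjusted p = 1.10e-04). At 0.05 they had 9 higher and 10 lower regions, or 6.52% and 7.25%, against 7.98% and 9.21% of all regions. The median log2 fold of these regions was 0.24, with 82 folds above 0 and 56 below. Aqp1, a water channel gene of the red cell membrane, had a gene-end region at -1.56 in the authors' deposited table (adjusted p = 0.00508). It was picked after its values were seen. Heme synthesis genes had 2 losses at 0.001 among 32 regions, both outside Cpox, a heme pathway oxidase gene, at -2.94 and -2.33 in the authors' deposited table (adjusted p = 8.91e-04 and 4.93e-04). That threshold called 1.24% of all regions as higher and 1.22% as lower. The nearer of the 2 losses lay 5.62 kb from Cpox, whose gene-end region stood at 0.45 in the authors' deposited table (adjusted p = 0.899). Over the 32 heme regions the median log2 fold was 0.51, with 24 folds above 0 and 8 below. Alas2, the erythroid enzyme that starts heme synthesis, had its gene-end region at the 6.23rd percentile.

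Iron genes had 1 gain at 0.001 among 63 regions, at Hfe, a regulator of iron uptake, with 2.15 in the authors' deposited table (adjusted p = 4.49e-04). Of all regions, 1.24% were gains and 1.22% losses at 0.001. Genes of erythropoietin signalling had 1 loss among 96 regions, at the end of Gab1, an adaptor protein gene, with -2.49 in the authors' deposited table (adjusted p = 3.52e-05). Jak2, the kinase bound to the erythropoietin receptor, had 7 regions with a median of 0.07 in the authors' deposited table and 0 past 0.05. Carbonic anhydrase genes other than Car2 had 1 loss among 41 regions, 46.4 kb from Car8, at -2.74 in the authors' deposited table (adjusted p = 4.83e-04).

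The share past 0.05 was 20.9% at the 8 members, close to the 17.2% of all regions. It was 16.1% for erythroid factors, 13.8% for membrane genes, 15.6% for heme genes, 15.9% for iron genes and 18.8% for erythropoietin signalling. Granulocyte markers had 46.7%, with 11 regions higher and 17 lower of 60, led by a gain of 2.80 at Ctsg, a primary granule protease gene in the authors' deposited table (adjusted p = 2.48e-05). Gains also passed 0.001 at Mpo and Elane and a loss at Ltf, with 2.33, 1.82 and -2.36 in the authors' deposited table. Read levels differed between the lists, with a median log2 abundance of 1.48 for granulocyte markers and -0.91 for the members. In the 3 highest of the 10 classes of abundance, 36.1%, 39.8% and 28.7% of all regions passed 0.05. The part of read level in these shares was not tested. Megakaryocyte markers had 1 region higher and 11 lower of 58, or 1.72% and 19.0%, against 7.98% and 9.21% of all regions. Their losses at 0.001 lay at Itga2b (-2.59), Itgb3 (-2.40) and Vwf (-1.20) in the authors' deposited table. Cd34 had 3 losses at 0.001 among its 7 regions, of 2.48 to 2.89 in size, in the authors' deposited table. Losses at 0.001 made up 1.22% of all regions.

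B-cell markers had 0 higher and 6 lower of 77 regions, the lower being 7.79%, and T-cell markers 0 and 2 of 46, the lower being 4.35%. All regions had 7.98% higher and 9.21% lower. The median log2 abundance was low in both lists, at -1.93 for B-cell and -2.05 for T-cell markers. The lowest adjusted p in these lists was 0.00118 at Cd79b (-2.36) and 0.0104 at Cd5 (-1.76) in the authors' deposited table. Housekeeping genes had 6 higher and 4 lower of 60, with a gain of 2.56 near Hprt in the authors' deposited table (adjusted p = 1.09e-04). The part of the granulocyte, megakaryocyte and progenitor shifts in the erythroid values was not tested.

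**Figure D5:**
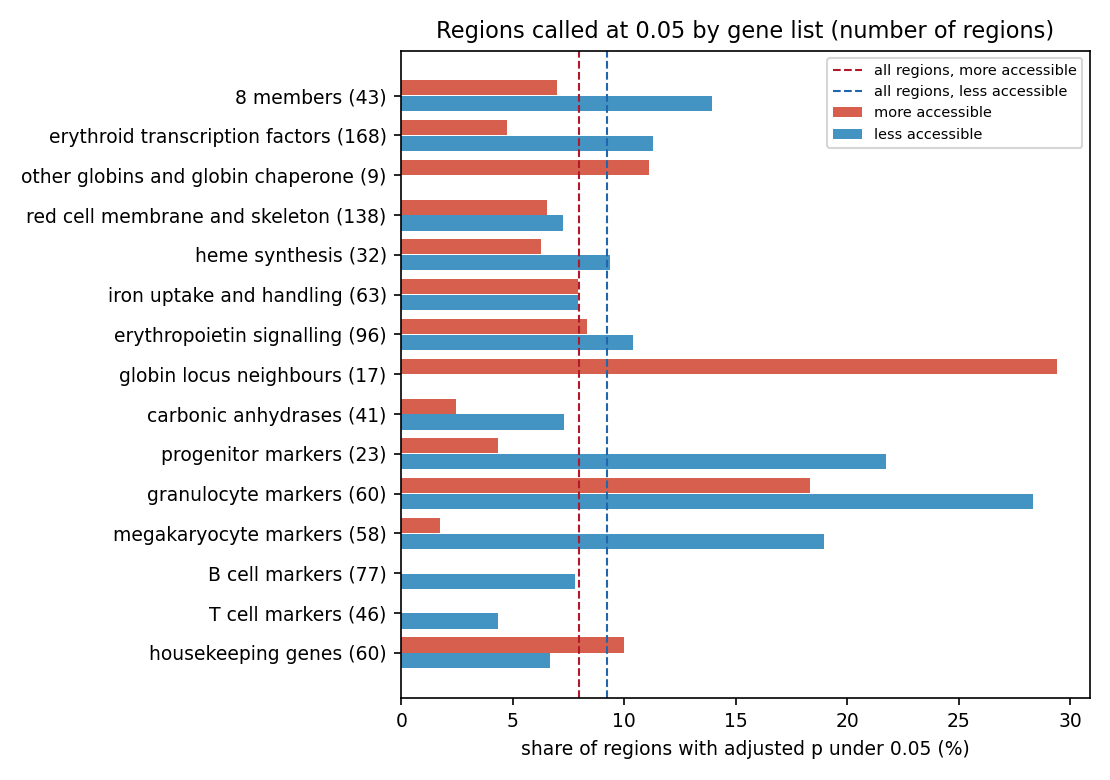
Share of regions in percent (horizontal axis) with an adjusted p under 0.05, higher (red) and lower (blue) in leukemic cells, by gene list, from the authors' deposited table. Dashed lines give the share over all regions, 7.98% higher and 9.21% lower, and numbers in brackets are regions. Granulocyte bars reach 18.3% and 28.3%, while the 8 members stand at 6.98% and 14.0%. The lists differ in read level, with a median log2 abundance of 1.48 for granulocyte markers and -0.91 for the members.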

How the data were processed

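ATAC-seq libraries from sorted mouse marrow were compared by the authors. Per the submitters' processing notes, the build was GRCm38 (mm10), and Genrich 0.6, SAMtools 1.10.2 and Bowtie2 2.4.1 were used. The file's title names csaw, a window-based method. The sources used here do not give its settings, the normalization, the read filters or any shift for the transposase's cut. The authors' deposited values are a log2 fold change, a log2 average abundance (a reading from its position and range), a p-value and an adjusted p-value. The adjusted values equal a Benjamini-Hochberg adjustment over all regions to within 2.39e-15. The authors' deposited sets equal an adjusted p under 0.001 by sign (2002 and 1961 regions) or over 0.9 (19123, of which 4 are member regions). Whether abundance is per window or per region is unknown. Over all regions its Spearman correlation with width was 0.553, so levels were also ranked within 10 equal classes of width, called like width. Depth per library is unknown, and no intervals were set. Coordinates are as deposited.

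Regions were given to the nearest of 49997 RefSeq genes of GRCm38.p6 (158996 regions, 98.8%), ties kept, with Python 3.11.15, numpy 2.4.6 and pandas 2.3.3. Gene ends span 1 kb either way. Assignment was checked on simulated intervals. No test was run on any list, and percentages stand beside those of all regions. Members and lists were chosen with earlier results of these data known. Text names all members' gene-end, most abundant, lowest-p and extreme regions, and from each other list the genes with a region under 0.001 or else the lowest adjusted p. Genes named beyond this, such as Aqp1, Alas2, Jak2, Gata1, Car1, Car3, Car13, Hbb-bs and Hba-a2, were chosen after their values were seen. Alternatives concerned assignment, distance, biotype, abundance, threshold and centring.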

Additional observations from a re-analysis of the deposited data

How the results depend on the processing

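No paired analysis was possible because the table holds a single fold per region, and for the same reason no library could be left out in turn. The count of 0 calls at 0.001 in either direction was also found by nearest edge and with protein-coding genes only. A 20 kb limit, an abundance of at least 0, leaving out shared regions and a stricter threshold could only give 0. At 0.05, which called 7.98% of all regions as higher and 9.21% as lower, the count became 3 higher and 6 lower. At an unadjusted p under 0.05, which 31.3% of all regions passed, it was 4 higher and 12 lower. Over all 258 regions within 100 kb, whichever gene was nearest, 2 were higher and 1 lower at 0.001. The shares over the whole table at 0.001 were 1.24% higher and 1.22% lower. The median fold over the members, 0.02, moved by over 0.1 to -0.15 with protein-coding genes only (64 regions), 0.32 over the 258 regions, 0.32 at an abundance of at least 0 (8 regions) and -0.14 without regions shared with another gene, a setting chosen after seeing the data. It was -0.14 without Klf1 or without Hba-a1, -0.29 without Slc4a1, -0.31 without Ank1 and 0.27 without Car2, and -0.21 relative to the median of each region's own chromosome. Of 61 per-gene median folds under alternatives, 59 kept their sign. The exceptions were Ank1 relative to its chromosome (-0.01) and Tfrc with protein-coding genes only (-0.30). Part of this count was fixed beforehand, since the 20 kb limit left out no region and only Ank1 had regions shared with another gene. Assignment by nearest edge gave each gene the same median. At low read levels calls are rare, and 35 of the 43 regions had a log2 abundance below 0.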

Other observations

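Regions within 100 kb of the members but nearest to other genes held further changes. Around Tfrc, a region nearest to Zdhhc19 at chromosome 16, 32546873 to 32548318, had a log2 fold of -2.20 in the authors' deposited table (adjusted p = 3.16e-05), at a log2 abundance of 2.88. A region nearest to Tnk2, at 32688831 to 32689080, stood at 2.14 in the authors' deposited table (adjusted p = 1.25e-04). Of the 41 regions within 100 kb of Tfrc, 3 were higher and 7 lower at an adjusted p under 0.05, a threshold that called 7.98% of all regions as higher and 9.21% as lower.

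Near Slc4a1, a region inside Hrob at chromosome 11, 102257547 to 102257797, had a log2 fold of 2.70 in the authors' deposited table (adjusted p = 3.35e-05). Of 30 regions within 100 kb of Slc4a1, 8 were higher and 0 lower at 0.05, and of 20 around Epor, 8 were higher and 0 lower. Around Hba-a1 the counts were 7 and 1 of 38. Over all regions 7.98% were called higher and 9.21% lower. In either direction the shares were 26.7% around Slc4a1, 40.0% around Epor and 21.1% around Hba-a1. Their median log2 abundances were 0.98, 0.83 and -0.37. In the classes of abundance that hold these values, 39.8%, 39.8% and 26.2% of all regions passed 0.05. The sites named here were chosen after their values were seen, and nothing in the table links them to the erythroid genes.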
